A study of Saccharomyces cerevisiae with 21 samples.

Results

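The small subunit (SSU) processome is the nucleolar particle in which the precursor of 18S ribosomal RNA folds, is modified and is cut on its way to the 40S ribosomal subunit. The genes described here are 35 yeast genes of this particle and of early 40S assembly, chosen by name from a list of gene identifiers, with earlier results of these data known, out of 6600 counted yeast features. By role they fall into 4 proteins of the U3 small nucleolar ribonucleoprotein (snoRNP), 6 of the UTPA subcomplex, 6 of the UTPB subcomplex, 3 of the MPP10 complex, 5 enzymes and 11 other assembly factors. Poly(A) RNA of budding yeast (Saccharomyces cerevisiae, strain BY4742) was sequenced from whole cells and from nuclear extracts of 3 strains, each with green fluorescent protein fused to NAB2 at its own locus. Nab2 is a nuclear protein that binds poly(A) tails and takes part in mRNA export. The IDR mutant lacks Nab2 residues 104 to 263, with its QQQP and RGG stretches, and carries the nuclear localization signal of SV40. The interface mutant has the substitution F450A, and the wild type has the tag alone. All 3 strains are MAT alpha, carry the his3, leu2, lys2 and ura3 deletions of BY4742 and the HISMX marker, so the tag and the marker are in the wild type too. Starved cells were kept for 24 h in synthetic medium without glucose, and unstressed cells were taken in mid-log growth in 2% glucose. Whole cells gave n = 2 libraries in each of 6 groups, and nuclear extracts of starved cells gave n = 3 in each of 3 groups. Whether replicates were separate cultures, and how many clones a strain stands for, is not stated, so the p-values cover the spread of the libraries, which could be technical.

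The processome forms on the 5′ end of the nascent ribosomal RNA precursor, where UTPA binds first and UTPB and the U3 snoRNP follow, and U3 base-pairs with the precursor to set the cleavage sites. Its genes belong to the ribosome biogenesis regulon of yeast, which growing cells transcribe at high rates and which nutrient loss represses through the TORC1 and protein kinase A pathways. Promoters of this regulon are known for 2 sequence elements: the polymerase A and C (PAC) box, bound by the repressors Dot6 and Tod6, and the ribosomal RNA processing element (RRPE), bound by Stb3.

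Promoters are shown first because 1 or both of these elements stand in most of these genes. Windows run from 250 bases before the start codon to 50 bases from its first base on, on the gene's strand, read from the R64 assembly of strain S288C (NCBI RefSeq). The genes shown are the 2 with the largest fall in starved wild type (UTP9 and SOF1), the 2 with the largest rise (ECM16 and UTP10) and NOP1. Capitals mark every match on either strand to GATGAG (the PAC core), GCGATGAG, AAAAATTT (an RRPE core) or TGAAAAATT. The windows are chrVIII:491681-491980 on the plus strand for UTP9, chrXII:127273-127572 plus for SOF1, chrXIII:523446-523745 plus for ECM16, chrX:217260-217559 minus for UTP10 and chrIV:427114-427413 plus for NOP1.
UTP9: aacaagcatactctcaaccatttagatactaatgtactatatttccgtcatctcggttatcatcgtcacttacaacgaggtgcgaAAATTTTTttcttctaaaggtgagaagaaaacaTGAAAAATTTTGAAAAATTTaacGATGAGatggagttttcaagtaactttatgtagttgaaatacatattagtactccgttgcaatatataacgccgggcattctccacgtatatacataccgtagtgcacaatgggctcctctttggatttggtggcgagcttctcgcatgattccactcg
SOF1: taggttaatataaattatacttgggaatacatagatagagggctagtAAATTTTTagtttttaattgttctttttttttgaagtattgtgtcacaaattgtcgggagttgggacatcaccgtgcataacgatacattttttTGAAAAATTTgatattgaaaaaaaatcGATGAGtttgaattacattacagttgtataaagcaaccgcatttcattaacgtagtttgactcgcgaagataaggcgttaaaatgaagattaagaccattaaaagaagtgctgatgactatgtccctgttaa
ECM16: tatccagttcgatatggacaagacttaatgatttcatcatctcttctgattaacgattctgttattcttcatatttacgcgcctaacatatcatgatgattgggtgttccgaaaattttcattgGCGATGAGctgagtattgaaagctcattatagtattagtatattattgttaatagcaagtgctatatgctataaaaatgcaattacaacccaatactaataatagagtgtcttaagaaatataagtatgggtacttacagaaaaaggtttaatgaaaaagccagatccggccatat
UTP10: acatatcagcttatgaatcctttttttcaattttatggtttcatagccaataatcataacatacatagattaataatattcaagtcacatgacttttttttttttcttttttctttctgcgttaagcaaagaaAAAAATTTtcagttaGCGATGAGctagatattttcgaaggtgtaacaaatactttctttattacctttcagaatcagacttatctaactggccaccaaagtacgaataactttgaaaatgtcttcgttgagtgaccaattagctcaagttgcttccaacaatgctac
NOP1: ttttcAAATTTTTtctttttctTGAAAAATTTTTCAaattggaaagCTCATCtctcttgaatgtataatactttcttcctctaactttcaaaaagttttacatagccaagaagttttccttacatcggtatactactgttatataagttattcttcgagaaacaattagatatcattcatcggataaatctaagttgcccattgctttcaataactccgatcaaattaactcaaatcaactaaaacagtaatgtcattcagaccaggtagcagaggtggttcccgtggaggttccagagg
UTP9 holds 3 RRPE cores and then 1 PAC core, SOF1 and NOP1 hold both kinds, UTP10 has 1 of each side by side, and ECM16 has a PAC core alone. GATGAG lies inside GCGATGAG, and TGAAAAATT overlaps AAAAATTT where a T follows it.

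Over the whole set, GATGAG was found in 33 of 35 windows (94.3%), against 19.8% of the 6571 windows of all yeast features. GCGATGAG was in 19 (54.3%, against 3.68%), AAAAATTT in 27 (77.1%, against 13.5%) and TGAAAAATT in 17 (48.6%, against 5.98%). Both cores stood together in 26 windows (74.3%), against 5.20% of all windows. UTP15 had AAAAATTT without GATGAG, and UTP22 was the only member with neither, against 71.9% of all windows with neither. Matches to GATGAG had a median position 105.5 bases before the start codon and those to AAAAATTT 133 bases before it. Other genes of ribosome assembly had GATGAG about as often: 28 of 32 other processome genes, 51 of 56 large subunit assembly genes and 9 of 10 RNA polymerase I genes. The median log2 fold change in starved wild type was -0.91 for the 26 genes with both cores and -0.53 for the 7 with GATGAG alone. The ranges of these 2 classes overlapped (-2.56 to 0.59, and -1.49 to 1.30). UTP22, with neither, fell in wild type, at -0.73 ± 0.14. Starved IDR mutant cells had nearly equal medians for the 2 classes, -1.968 with both cores and -1.965 with GATGAG alone. Medians for the starved interface mutant were -1.38 with both cores and -1.18 with GATGAG alone. A match describes the letters only.

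Depth ran from 4815254 to 14069868 counts in yeast genes in whole cell libraries and from 6353585 to 23138938 in 7 nuclear libraries, and all 35 genes had counts in each of these. Nuclear wild type replicate 3 (1079 counts) and nuclear interface mutant replicate 3 (3981 counts) held 6 and 20 counts in the members and were left out of the fits and of the values below. Values for each library are CPM, counts scaled to 1000000 in yeast genes per library, and are relative to the other poly(A) RNA of that library. In such bulk samples, less RNA per cell and a change in the mix of cells cannot be told apart. Unstressed wild type replicate 1 stood apart from replicate 2: 33 of the 35 genes were lower in it, with a median log2 ratio of -0.83. NAB2 itself had 133 and 123 CPM in the starved IDR mutant, 234 and 356 CPM in the starved interface mutant and 370.4 and 380.0 CPM in starved wild type. In unstressed cells it had 205 and 226 CPM in the IDR mutant, 254 and 208 CPM in the interface mutant and 49.8 and 201 CPM in wild type. Nuclear extracts had 277, 296 and 127 CPM in the libraries labelled IDR mutant, 119 and 331 CPM in those labelled interface mutant and 414 and 431 CPM in wild type. IDR mutant replicate 3 and interface mutant replicate 1 thus lay near the starved whole cell IDR mutant, and the other nuclear mutant libraries within the range of the starved whole cell interface mutant. The low NAB2 value in unstressed wild type replicate 1 moved with that of the members, and its part in the results below was not tested. Starved interface mutant replicate 2 was low in some genes, with a highest log2 ratio of replicate 1 over replicate 2 of 1.98, for ENP2. The labels of the nuclear mutants were checked with 452 other genes that differed between the starved whole cell mutants. Each library was scored by how far these genes lay toward the whole cell IDR mutant, relative to the wild type of the same fraction. The whole cell libraries scored 1.46 and 1.53 for the IDR mutant and -0.00422 and 0.117 for the interface mutant. The 452 genes were picked by the difference between these same libraries, so this split was fixed in advance and their means are widened by it. The nuclear libraries labelled IDR mutant scored 0.00154, -0.194 and 0.696, and those labelled interface mutant 0.641 and 0.104. Thus 3 of 5 lay on the other mutant's side of the midpoint of the nuclear scores (0.251), namely IDR mutant replicates 1 and 2 and interface mutant replicate 1. This midpoint is drawn from the same 5 scores, so libraries fall on both sides of it in any case. All 5 lay nearer to the whole cell mean of the interface mutant (0.0564) than to that of the IDR mutant (1.5). The IDR mutant lacks Nab2 residues 104 to 263, so its NAB2 counts come from a shorter coding sequence. The unstressed NAB2 values of the 2 mutants overlapped. By its starved whole cell values NAB2, not among the 452 genes, sets IDR mutant replicates 1 and 2 and interface mutant replicate 1 against their labels. Nuclear results are therefore given by label, and some also without these 3, which leaves 1 nuclear library in each mutant.

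The processome genes held a smaller share of all counts in starved than in unstressed cells of every strain. They held 0.225% and 0.195% of counts in the starved IDR mutant, against 0.892% and 0.910% in the unstressed one. They held 0.373% and 0.280% in the starved interface mutant, against 0.927% and 0.903% unstressed. In wild type they held 0.421% and 0.435% after starvation, against 0.588% and 0.867% before it. No starved library reached the lowest unstressed one, and the IDR mutant was lowest after starvation. In CPM, all 35 genes had both starved libraries below both unstressed ones in the IDR mutant. In the interface mutant 33 did, and in wild type 21 did and 4 had both starved libraries above. The share of all genes so parted was not counted, and nothing is read from these counts. These CPM carry no normalization (TMM) factors, which were 0.884 and 0.850 in the starved IDR mutant and 1.15 and 1.14 in the unstressed one. RRP5 and NAN1 are among the 33, though their fitted log2 fold changes were above 0.

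**Figure D1:**
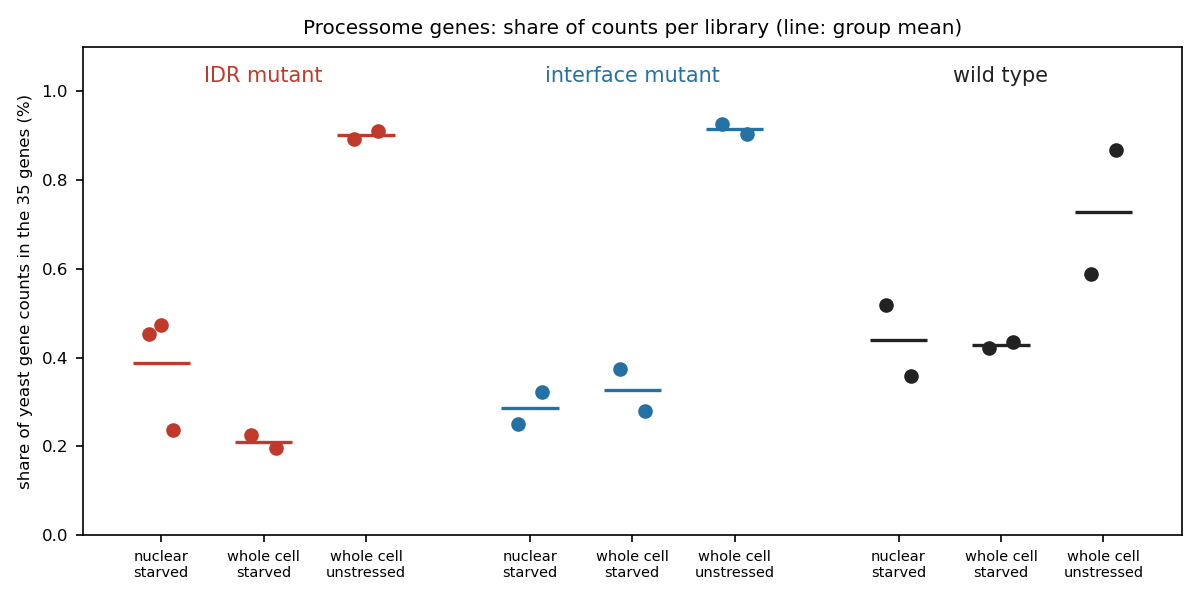
Share of yeast gene counts (%, y axis) in the 35 processome genes, with a point per library and a line at the group mean, for nuclear extracts, starved whole cells and unstressed whole cells of each strain. Starved whole cells lie between 0.195% and 0.435% and unstressed ones between 0.588% and 0.927%.

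The same comparison was made gene by gene with edgeR's quasi-likelihood test, and the words rose and fell are kept for genes with an adjusted p below 0.05. In the IDR mutant 33 of 35 members fell and none rose, where 34.3% of the 5853 genes tested fell and 33.0% rose. In the interface mutant 27 fell and none rose (30.3% of all genes fell and 29.7% rose). In wild type 22 fell and 3 rose (34.5% of all genes fell and 31.7% rose). The median log2 fold change over the members was -1.97 in the IDR mutant, -1.33 in the interface mutant and -0.84 in wild type, and the median over all genes was -0.05 in each. The 3 strains share no library in this comparison. Of the members, 21 fell in all 3, out of the 33, the 27 and the 22 called (share of all genes not counted). Another 6 fell in both mutants and were not called in wild type (BMS1, DHR2, ENP2, PWP2, RRP12 and UTP14), and 5 fell in the IDR mutant only by call (KRE33, NAN1, RRP5, UTP10 and UTP20). KRR1 fell in the IDR mutant and wild type. ECM16 and NOC4 fell in no strain.

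**Figure D2:**
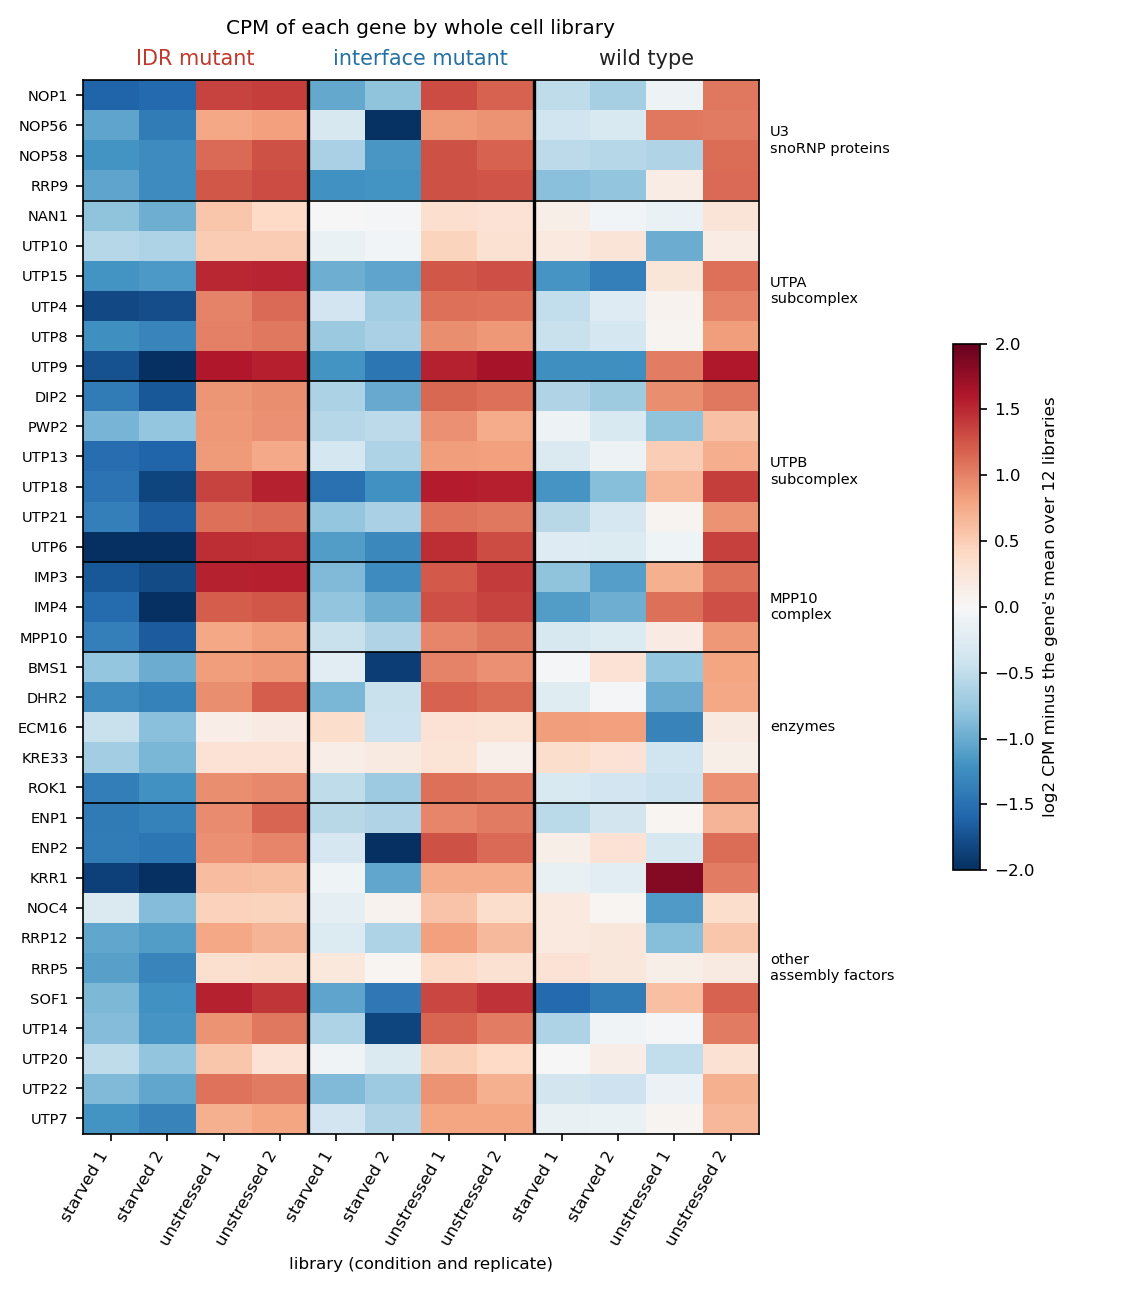
Heat map of log2 CPM minus each gene's mean over the 12 whole cell libraries, with genes in rows by role and libraries in columns by strain and condition. Colours end at 2 either way. In CPM, all 35 genes are lower in both starved than in both unstressed IDR mutant libraries (share of all genes not counted). Unstressed wild type replicate 1 is lower than its replicate 2 in 33 of 35 genes.

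The U3 snoRNP proteins fell in each strain, all 4 of 4. NOP1 (YDL014W), yeast fibrillarin and the ribose methyltransferase of box C/D snoRNPs, had 87.5 and 90.5 CPM in starved cells, against 678 and 692 CPM in unstressed cells of the IDR mutant. In the interface mutant it had 132 and 153 CPM in starved cells, against 656 and 605 CPM in unstressed cells, and in wild type 188 and 167 CPM in starved cells, against 247 and 556 CPM in unstressed cells. The 2 conditions did not overlap in any strain, and the log2 fold change was -2.55 ± 0.21 in the IDR mutant, -1.79 ± 0.20 in the interface mutant and -1.12 ± 0.20 in wild type, a 5.84-fold, 3.45-fold and 2.17-fold fall. NOP56 (YLR197W), a core protein of the same particles, had 283 and 221 CPM in starved cells, against 1004 and 1034 CPM in unstressed cells of the IDR mutant, and 443 and 474 CPM in starved cells, against 1221 and 1204 CPM in unstressed cells of wild type. Its starved replicates in the interface mutant were far apart, with 467 and 149 CPM in starved cells, against 1057 and 1095 CPM in unstressed cells. Its fold change was nearly the same in the 3 strains, at -1.62 ± 0.43 in the IDR mutant, -1.45 ± 0.43 in the interface mutant and -1.46 ± 0.43 in wild type. The NOP56 call was lost without either starved replicate in wild type, without starved replicate 2 in the IDR mutant and without unstressed replicate 2 in the interface mutant. NOP58 (YOR310C), the partner of Nop56, stood at -2.03 ± 0.33 in the IDR mutant, -1.75 ± 0.33 in the interface mutant and -0.95 ± 0.32 in wild type. Its wild type call rests on unstressed replicate 2 (453.9 CPM, against 139.1 CPM in replicate 1), without which it was -0.25 ± 0.18. It shares 254 bases with YOR309C on the same strand, where reads that fit both genes were not counted. RRP9 (YPR137W), which is specific to U3, stood at -2.03 ± 0.17 in the IDR mutant, -2.12 ± 0.17 in the interface mutant and -1.49 ± 0.16 in wild type. Per kilobase of gene, NOP56 and NOP1 were the 2 most abundant members in every starved group. NOP56 stood at 166.4, 203.2 and 302.9 CPM per kb and NOP1 at 90.5, 144.8 and 180.6 CPM per kb, in the starved IDR mutant, interface mutant and wild type. The medians over the members were 20.9, 30.7 and 37.5 CPM per kb in the same order.

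UTPA, the subcomplex that binds the nascent precursor first, held the steepest fall in wild type (UTP9) and also a rise there. In the mutants UTP9 was level, within the errors, with a UTPB gene given below. This was UTP6 in the IDR mutant and UTP18 in the interface mutant. UTP9 (YHR196W) had 33.9 and 26.1 CPM in starved cells, against 344 and 333 CPM in unstressed cells of the IDR mutant. It had 49.1 and 41.3 CPM in starved cells, against 327 and 353 CPM in unstressed cells of the interface mutant, and 48.4 and 48.4 CPM in starved cells, against 229 and 342 CPM in unstressed cells of wild type. Every starved library lay far below every unstressed one, and the log2 fold change was -3.10 ± 0.16 in the IDR mutant, -2.55 ± 0.16 in the interface mutant and -2.56 ± 0.16 in wild type. UTP15 (YMR093W) fell in each strain (-2.29 ± 0.16 in the IDR mutant, -1.92 ± 0.15 in the interface mutant and -1.98 ± 0.16 in wild type), and so did UTP4 (YDR324C) (-2.45 ± 0.19 in the IDR mutant, -1.26 ± 0.18 in the interface mutant and -0.94 ± 0.18 in wild type) and UTP8 (YGR128C) (-1.90 ± 0.14 in the IDR mutant, -1.25 ± 0.13 in the interface mutant and -0.87 ± 0.13 in wild type). UTP10 (YJL109C), a very long helical-repeat protein, behaved differently in wild type, with 144 and 149 CPM in starved cells, against 63.0 and 139 CPM in unstressed cells. The starved libraries were above both unstressed ones, and UTP10 rose by 0.59 ± 0.18 (edgeR adjusted p = 0.0177). In the IDR mutant it fell, with 84.2 and 82.1 CPM in starved cells, against 178 and 178 CPM in unstressed cells (-0.70 ± 0.18), and in the interface mutant it stood at -0.11 ± 0.18, not called. Its rise in wild type was 0.32 ± 0.11 without unstressed replicate 1, and its call was lost without either starved replicate. NAN1 (YPL126W) fell in the IDR mutant (-0.98 ± 0.14) and stood at 0.04 ± 0.13 in the interface mutant and -0.05 ± 0.13 in wild type.

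Of the 6 UTPB genes, which encode mostly beta-propeller proteins of the particle's scaffold, all 6 fell in each mutant and 5 fell in wild type. UTP6 (YDR449C) had 9.72 and 9.39 CPM in starved cells, against 108 and 106 CPM in unstressed cells of the IDR mutant. It had 17.8 and 15.8 CPM in starved cells, against 107 and 95.2 CPM in unstressed cells of the interface mutant, and 32.3 and 32.0 CPM in starved cells, against 36.3 and 99.7 CPM in unstressed cells of wild type. The 2 wild type conditions did not overlap, but unstressed replicate 1 came close to the starved libraries. Its log2 fold change was -3.09 ± 0.28 in the IDR mutant, -2.23 ± 0.26 in the interface mutant and -1.002 ± 0.254 in wild type. UTP18 (YJL069C), which is known to bring the RNA exosome to the particle, fell in each strain (-2.71 ± 0.19 in the IDR mutant, -2.55 ± 0.19 in the interface mutant and -2.06 ± 0.18 in wild type), as did DIP2 (YLR129W) (-2.06 ± 0.19 in the IDR mutant, -1.57 ± 0.19 in the interface mutant and -1.69 ± 0.19 in wild type). UTP13 (YLR222C) stood at -1.97 ± 0.16 in the IDR mutant, -0.95 ± 0.16 in the interface mutant and -0.83 ± 0.16 in wild type and UTP21 (YLR409C) at -2.23 ± 0.17 in the IDR mutant, -1.42 ± 0.16 in the interface mutant and -0.96 ± 0.16 in wild type. PWP2 (YCR057C) was the UTPB gene that was not called in wild type, where it had 92.9 and 81.0 CPM in starved cells, against 57.2 and 149.5 CPM in unstressed cells. The starved wild type libraries lay between the 2 unstressed ones, and the fold change of -0.18 ± 0.24 was -0.54 ± 0.13 without unstressed replicate 1, where it fell. PWP2 fell in both mutants, at -1.34 ± 0.24 (IDR) and -1.02 ± 0.24 (interface).

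All 3 genes of the MPP10 complex, which helps U3 pair with the precursor, fell in every strain. IMP4 (YNL075W) had 30.9 and 20.9 CPM in starved cells, against 208 and 212 CPM in unstressed cells of the IDR mutant. It had 51.8 and 45.6 CPM in starved cells, against 218 and 229 CPM in unstressed cells of the interface mutant, and 41.2 and 45.3 CPM in starved cells, against 193 and 218 CPM in unstressed cells of wild type. The groups were apart in all 3 strains, and the log2 fold change was -2.63 ± 0.20 in the IDR mutant, -1.84 ± 0.20 in the interface mutant and -2.29 ± 0.20 in wild type. IMP3 (YHR148W), at 552 bases the shortest member, stood at -2.89 ± 0.19 in the IDR mutant, -2.01 ± 0.18 in the interface mutant and -1.87 ± 0.18 in wild type. MPP10 (YJR002W), the scaffold of the complex, fell less, at -1.92 ± 0.15 in the IDR mutant, -1.18 ± 0.14 in the interface mutant and -0.84 ± 0.14 in wild type.

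The 5 enzymes included 2 of the 3 genes that rose in wild type, and 4 of them fell in the IDR mutant, 3 in the interface mutant and 1 in wild type. ECM16 (YMR128W), the DEAH-box helicase Dhr1 that unwinds U3 from the precursor, had 323 and 322 CPM in starved cells, against 72.3 and 206 CPM in unstressed cells of wild type. Both starved libraries were above both unstressed ones, and it rose by 1.30 ± 0.32, a 2.46-fold rise (edgeR adjusted p = 0.0059). The rise was 0.89 ± 0.26 with unstressed replicate 1 left out and 1.86 ± 0.28 with replicate 2 left out, and was called in both. In the IDR mutant it had 134 and 102 CPM in starved cells, against 199 and 203 CPM in unstressed cells (-0.38 ± 0.32, adjusted p = 0.314). In the interface mutant it had 232 and 135 CPM in starved cells, against 223 and 219 CPM in unstressed cells (0.09 ± 0.32, adjusted p = 0.816). Neither mutant passed, though the 2 conditions of the IDR mutant did not overlap. KRE33 (YNL132W), the RNA cytidine acetyltransferase of 18S ribosomal RNA, had 77.7 and 66.5 CPM in starved cells, against 154 and 153 CPM in unstressed cells of the IDR mutant, where it fell (-0.69 ± 0.13). In the interface mutant it had 137 and 142 CPM in starved cells, against 152 and 135 CPM in unstressed cells (0.32 ± 0.13, not called), and in wild type 159.8 and 154 CPM in starved cells, against 95.2 and 136 CPM in unstressed cells, where it rose (0.43 ± 0.13), a call that was lost without either starved replicate. ROK1 (YGL171W), a DEAD-box helicase, fell in each strain (-1.84 ± 0.24 in the IDR mutant, -1.33 ± 0.24 in the interface mutant and -0.67 ± 0.24 in wild type). Its wild type value was -0.21 ± 0.13, not called, without unstressed replicate 2, and the call was also lost without either starved replicate. DHR2 (YKL078W), a DEAH-box helicase, had 28.5 and 33.2 CPM in starved cells, against 17.0 and 57.5 CPM in unstressed cells of wild type. The starved values lay between the 2 unstressed ones, and the fold change of -0.17 ± 0.34 was not called. Leaving out unstressed replicate 1 gave -0.66 ± 0.19 and leaving out replicate 2 gave 0.56 ± 0.20, both called, so the direction depends on which is kept. DHR2 fell in both mutants, at -1.99 ± 0.36 (IDR) and -1.45 ± 0.34 (interface). BMS1 (YPL217C), a GTPase of the particle, stood at -1.34 ± 0.47 in the IDR mutant, -1.43 ± 0.47 in the interface mutant and 0.02 ± 0.46 in wild type and was not called in wild type. Its call in the IDR mutant was lost without any 1 of the 4 libraries compared, and that in the interface mutant without either unstressed replicate or starved replicate 2.

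Among the 11 other assembly factors, 10 fell in the IDR mutant, 7 in the interface mutant and 5 in wild type. SOF1 (YLL011W), a WD-repeat protein, had 33.9 and 27.4 CPM in starved cells, against 183 and 169.5 CPM in unstressed cells of the IDR mutant. It had 30.4 and 23.4 CPM in starved cells, against 160.3 and 171 CPM in unstressed cells of the interface mutant, and 21.6 and 24.1 CPM in starved cells, against 96.1 and 144 CPM in unstressed cells of wild type. It fell in each strain (-2.13 ± 0.17 in the IDR mutant, -2.26 ± 0.17 in the interface mutant and -2.39 ± 0.17 in wild type), and it was the member with the largest fall in wild type after UTP9. RRP5 (YMR229C), an RNA-binding protein that acts in the assembly of both subunits, had 153 and 129 CPM in starved cells, against 408 and 413 CPM in unstressed cells of the IDR mutant, where it fell (-1.14 ± 0.17). In the interface mutant it had 375 and 332 CPM in starved cells, against 423 and 403 CPM in unstressed cells (0.14 ± 0.17), and in wild type 395 and 380.5 CPM in starved cells, against 352 and 367 CPM in unstressed cells (0.06 ± 0.17). Neither of these passed. KRR1 (YCL059C), which has a KH-type RNA-binding fold, had 49.9 and 40.01 CPM in starved cells, against 281 and 276 CPM in unstressed cells of the IDR mutant (-2.24 ± 0.43). It had 172 and 89.3 CPM in starved cells, against 305 and 306 CPM in unstressed cells of the interface mutant (-0.87 ± 0.40, not called), and 165 and 158 CPM in starved cells, against 653 and 369.8 CPM in unstressed cells of wild type (-1.78 ± 0.41). Unstressed wild type replicate 1, low for most members, was high for KRR1, and without it the wild type fall was -0.95 ± 0.28.

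The remaining factors of this group differed in how many strains they fell in. ENP1 (YBR247C), which stays on the particle into pre-40S stages, fell in each strain (-2.04 ± 0.15 in the IDR mutant, -1.23 ± 0.14 in the interface mutant and -0.84 ± 0.14 in wild type), as did UTP7 (YER082C) (-1.62 ± 0.13 in the IDR mutant, -0.91 ± 0.13 in the interface mutant and -0.53 ± 0.13 in wild type) and UTP22 (YGR090W) (-1.62 ± 0.15 in the IDR mutant, -1.25 ± 0.15 in the interface mutant and -0.73 ± 0.14 in wild type). UTP14 (YML093W), the activator of Dhr1, fell in the mutants and missed the threshold in wild type (-1.60 ± 0.36 in the IDR mutant, -1.83 ± 0.36 in the interface mutant and -0.88 ± 0.36 in wild type, adjusted p = 0.0514 in wild type). RRP12 (YPL012W), a helical-repeat protein tied to export of both subunits, fell in the mutants and stood above 0 in wild type (-1.41 ± 0.25 in the IDR mutant, -0.81 ± 0.25 in the interface mutant and 0.27 ± 0.25 in wild type). The interface mutant call was lost without unstressed replicate 1 or starved replicate 2. ENP2 (YGR145W) fell in the mutants too and was not called in wild type, with wide errors (-1.97 ± 0.52 in the IDR mutant, -1.86 ± 0.51 in the interface mutant and -0.28 ± 0.49 in wild type). Its starved interface mutant libraries had 83.1 and 21.1 CPM and its unstressed wild type libraries 84.3 and 227 CPM. UTP20 (YBL004W), a helical-repeat protein and at 7482 bases the longest member, fell in the IDR mutant alone by call (-0.68 ± 0.16 in the IDR mutant, -0.25 ± 0.16 in the interface mutant and 0.13 ± 0.16 in wild type). NOC4 (YPR144C), the partner of Nop14, passed in no strain (-0.61 ± 0.29 in the IDR mutant, -0.17 ± 0.28 in the interface mutant and 0.40 ± 0.29 in wild type).

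**Figure D3:**
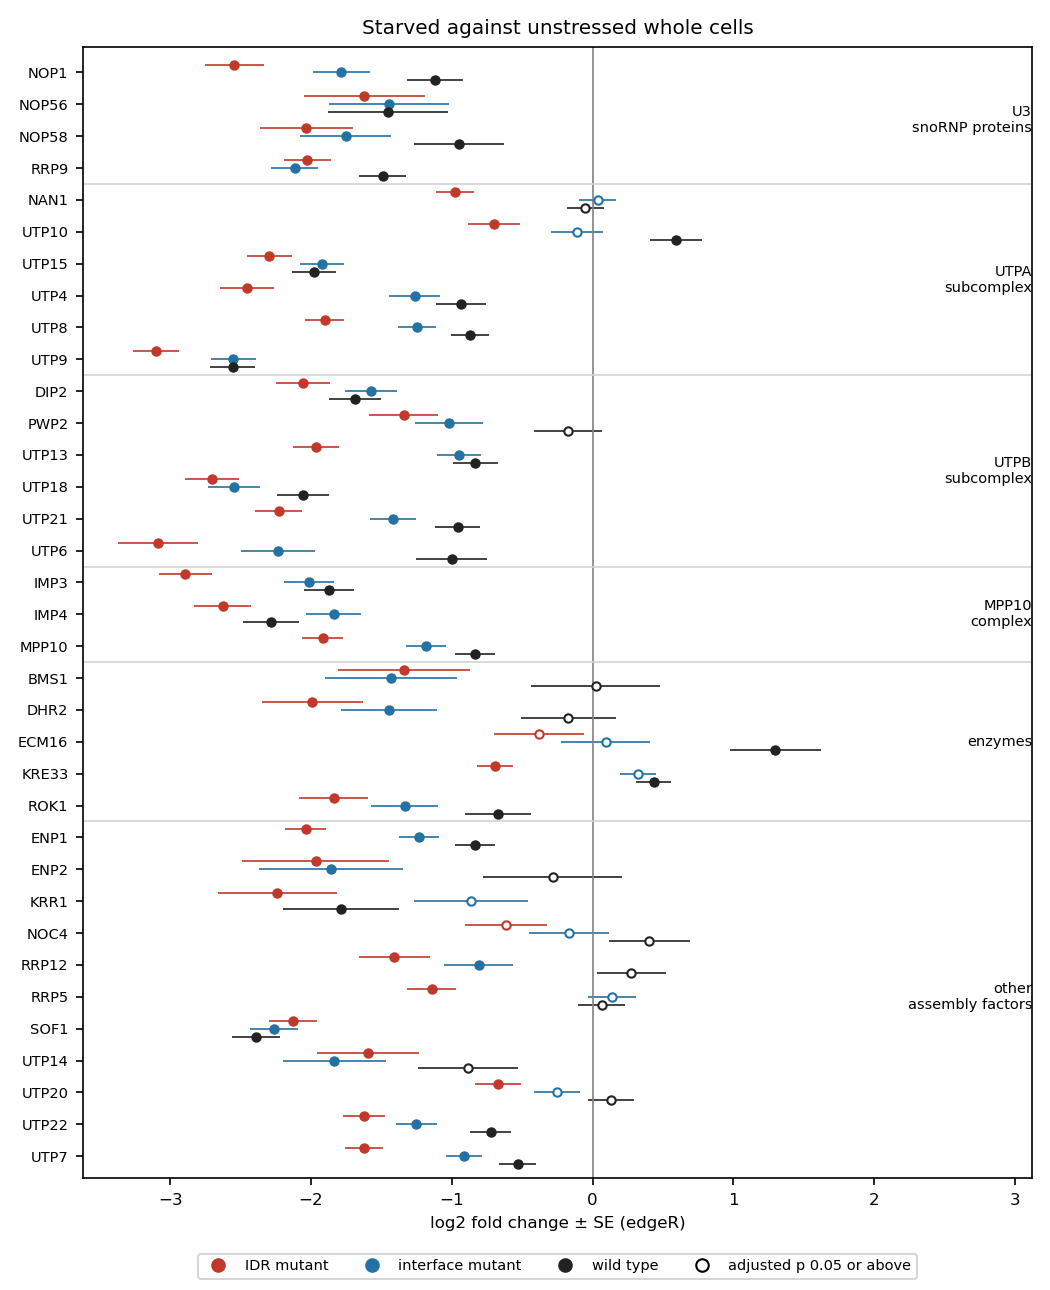
Log2 fold change ± SE of starved against unstressed whole cells (x axis) for each gene by role, in the IDR mutant, the interface mutant and wild type (n = 2 in each condition), with open points where the edgeR adjusted p was 0.05 or above. The IDR mutant lies left of wild type for 34 of 35 genes, SOF1 being the exception.

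Longer members fell less. The Spearman correlation between gene length and log2 fold change over the 35 members was 0.66 in the IDR mutant, 0.55 in the interface mutant and 0.67 in wild type. Over all 5853 genes tested it was 0.08, 0.04 and 0.25 in the same strains. These are correlations across genes, which are not independent replicates and share the same libraries, and are given with no test. The 12 shortest members (552 to 1665 bases) had a median log2 fold change of -2.18 in the IDR mutant, -1.77 in the interface mutant and -1.29 in wild type. The 12 longest (2700 to 7482 bases) had medians of -1.34, -0.91 and 0.04. In wild type 11 of the 12 shortest members fell and 3 of the 12 longest did. The 3 members that rose in wild type are all among the longest. The relation lay between 0.50 and 0.69 with any 1 library left out. In the comparisons of strains below, it lay between -0.44 in nuclear extracts and 0.17 in unstressed cells, both for the interface mutant against wild type. Over all genes it was 0.38 for the unstressed IDR mutant against wild type and 0.45 for the unstressed interface mutant. The length of RNA fragments and the quality of the RNA are not known here, and their part in this relation was not tested.

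**Figure D4:**
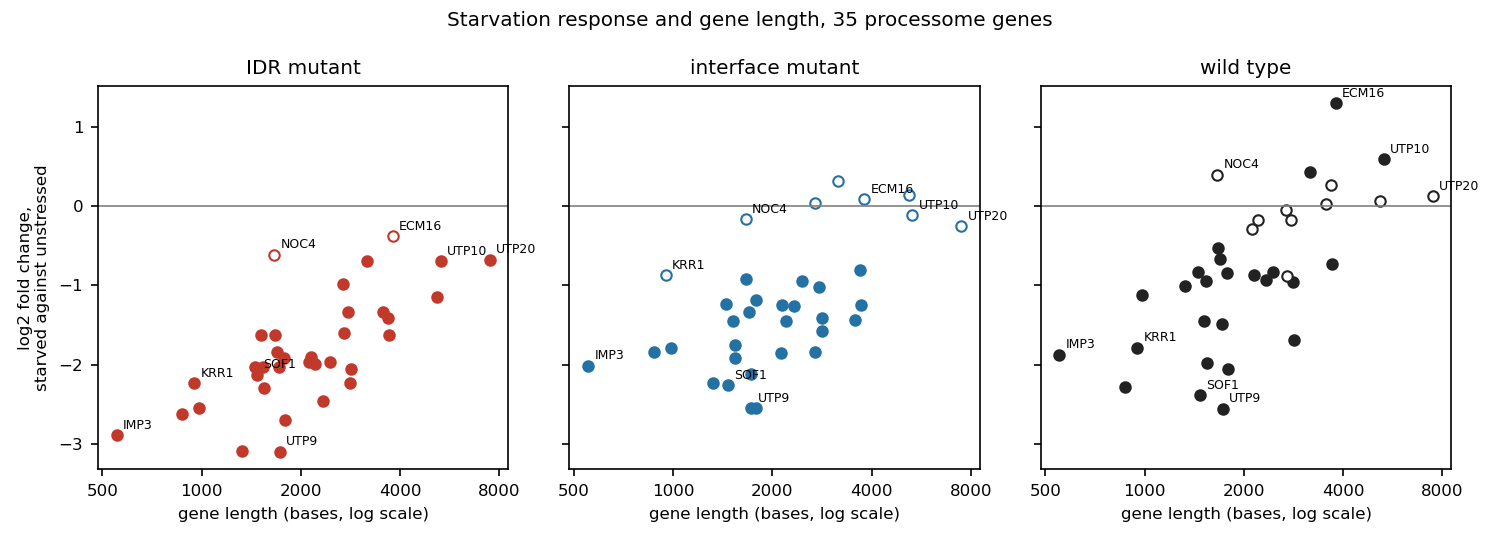
Log2 fold change of starved against unstressed whole cells (y axis) by gene length in bases (x axis, log scale) for the 35 genes in each strain, with open points where the edgeR adjusted p was 0.05 or above. Points climb with length in each panel, with Spearman correlations of 0.66, 0.55 and 0.67 in the IDR mutant, the interface mutant and wild type.

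Before starvation, the mutants were compared with wild type to ask what each Nab2 allele does to these genes in growing cells. No member passed in either, and both comparisons share the wild type libraries. For the unstressed IDR mutant 0 of 35 rose or fell by edgeR (13 at an unadjusted p under 0.05, and 1.67% of all genes called), with a median log2 difference of 0.34. For the unstressed interface mutant 0 of 35 did (6 unadjusted, and 0.0% of all genes called), with a median of 0.27. UTP15 had 110.1 and 111 CPM in the IDR mutant, 91.6 and 94.1 CPM in the interface mutant and 45.8 and 83.2 CPM in wild type. It had the smallest p in the IDR mutant (0.59 ± 0.14, edgeR adjusted p = 0.0676), followed by UTP22 (0.51 ± 0.14) and UTP10 (0.65 ± 0.18). KRR1 (-1.12 ± 0.40), ENP1 (0.38 ± 0.14) and UTP10 (0.49 ± 0.18) had the smallest p in the interface mutant, each with adjusted p = 0.196. These counts turn on 1 wild type library: members were called in both mutants without unstressed wild type replicate 2, and none without replicate 1. Each of these fits leaves 1 unstressed wild type library and has no share of all genes beside it, so nothing is read from its calls. With any 1 library left out, the median lay between 0.13 and 0.49 for the IDR mutant. For the interface mutant it lay between 0.11 and 0.43. DESeq2 on all libraries called 6 higher and 1 lower for the IDR mutant (share of all genes not given). Likewise 0 of 35 members were called between the unstressed IDR mutant and the unstressed interface mutant (0 unadjusted, and 0.188% of all genes called). The median log2 difference was 0.03, and the smallest p values were those of UTP22 (0.29 ± 0.14), UTP15 (0.29 ± 0.14) and IMP3 (0.26 ± 0.17).

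After starvation most processome genes were lower in the IDR mutant, set against wild type. Of 35 members 21 fell and 1 rose, where 13.3% of all genes fell and 15.9% rose, and the median log2 difference was -0.74. RRP5 had 153 and 129 CPM in the starved IDR mutant, against 395 and 380.5 CPM in starved wild type (-1.28 ± 0.17, edgeR adjusted p = 0.000978). KRE33 had 77.7 and 66.5 CPM in the IDR mutant, against 159.8 and 154 CPM in wild type (-0.94 ± 0.13), and UTP13 36.6 and 34.4 CPM, against 86.0 and 97.8 CPM (-1.19 ± 0.16). The groups did not overlap in any of the 3 genes. MPP10 (-1.04 ± 0.14) and UTP7 (-0.94 ± 0.13) were lower as well. SOF1 was the exception: it had 33.9 and 27.4 CPM in the IDR mutant, against 21.6 and 24.1 CPM in wild type, and rose (0.60 ± 0.17, adjusted p = 0.027). UTP9 had 33.9 and 26.1 CPM, against 48.4 and 48.4 CPM. Leaving out any 1 of the 4 libraries left 11 to 13 members lower and none higher, and the median stayed between -0.81 and -0.69. The compared groups alone gave 32 lower, in a fit for which no share of all genes is given (the 13.3% is of the main fit).

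For the starved interface mutant against wild type no member was called. By edgeR 0 of 35 were called (1 at an unadjusted p under 0.05, and 0.478% of all genes called). The median log2 difference was -0.20, the same direction as in the IDR mutant but smaller. Of the 35 members 30 were below 0 (share of all genes not counted). UTP6 had 17.8 and 15.8 CPM in the starved interface mutant, against 32.3 and 32.0 CPM in starved wild type (-0.83 ± 0.26, adjusted p = 0.255). ECM16 (-0.71 ± 0.32) and UTP15 (0.36 ± 0.16) came next. Without starved interface mutant replicate 1, 4 members were lower. Set against each other, the starved IDR mutant had 15 members lower and none higher than the starved interface mutant (9.86% of all genes lower and 10.4% higher), with a median of -0.57. RRP5 had 153 and 129 CPM in the IDR mutant, against 375 and 332 CPM in the interface mutant (-1.25 ± 0.17, adjusted p = 0.00246). KRE33 (-0.88 ± 0.13), UTP4 (-1.18 ± 0.18), MPP10 (-0.91 ± 0.14) and UTP13 (-1.01 ± 0.16) followed. The count was 8 without starved IDR mutant replicate 1, 3 without its replicate 2 and 9 without starved interface mutant replicate 1.

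Whether the starvation response itself differed between strains was tested as an interaction. In the IDR mutant the response of 18 members was more negative than that of wild type, and of none more positive, where 5.50% of all genes were lower and 6.24% higher. The median difference in log2 response was -1.09, and 34 of 35 members were below 0. KRE33 (-1.13 ± 0.18, edgeR adjusted p = 0.0091), ENP1 (-1.20 ± 0.20), UTP4 (-1.52 ± 0.25), UTP7 (-1.09 ± 0.18) and UTP21 (-1.27 ± 0.23) had the smallest p. UTP4 had 29.3 and 30.1 CPM in starved cells, against 204 and 225 CPM in unstressed cells of the IDR mutant, and 72.7 and 85.8 CPM in starved cells, against 107 and 204 CPM in unstressed cells of wild type. None of the 18 calls held in every alternative. The count was 0 without starved wild type replicate 1, starved wild type replicate 2, unstressed IDR mutant replicate 2 or starved IDR mutant replicate 2. It was 2 without unstressed IDR mutant replicate 1, 8 without starved IDR mutant replicate 1, 22 without unstressed wild type replicate 1 and 29 without unstressed wild type replicate 2. The median stayed between -1.13 and -1.002 over these fits. The response of the interface mutant was called different from that of wild type for 0 of 35 members (9 unadjusted, and 0.0171% of all genes called), with a median of -0.40. UTP6 (-1.23 ± 0.36), RRP12 (-1.08 ± 0.35) and RRP9 (-0.62 ± 0.23) had the smallest p, each with adjusted p = 0.254. Without unstressed wild type replicate 2, 17 members were more negative and 2 more positive, and without starved interface mutant replicate 1, 2 were more negative. Both interactions share the wild type libraries, and shares of all genes are given for the main fits only.

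In nuclear extracts of starved cells no member was called between strains. By edgeR 0 of 35 were called for the IDR mutant against wild type (0 at an unadjusted p under 0.05, and 0.0% of all genes called), with a median log2 difference of 0.05. None was called for the interface mutant (1 unadjusted, and 0.0% of all genes called), with a median of -0.29. UTP6 had the smallest p in both, with 28.7, 37.0 and 18.1 CPM in the libraries labelled IDR mutant, 15.5 and 25.6 CPM in those labelled interface mutant and 52.2 and 42.0 CPM in wild type. Its log2 difference from wild type was -0.55 ± 0.25 for the label IDR mutant and -0.92 ± 0.28 for the label interface mutant. SOF1 (0.39 ± 0.26) and UTP20 (-0.32 ± 0.25) came next for the IDR mutant, and UTP20 (-0.60 ± 0.28) and DIP2 (-0.34 ± 0.22) in the interface mutant. Within a label the libraries were spread widely: the members held 0.453%, 0.473% and 0.237% of counts in nuclear IDR mutant libraries, 0.249% and 0.323% in interface mutant ones, and 0.519% and 0.359% in wild type. Replicate 3 of the IDR mutant and replicate 1 of the interface mutant were thus near each other. Without the 3 libraries on the other mutant's side, each mutant keeps 1 nuclear library, chosen by its own expression. No comparison of strains is read from that fit.

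Nuclear extracts were then set against whole cells of the same starved strain. The labels number the nuclear libraries in a series of sample names of their own (MZ, against SH for whole cells). Whether these are batches is not stated, and fraction and name series cannot be told apart. In wild type 2 members were higher and 3 lower in nuclear extracts (17.0% of all genes higher and 14.0% lower), with a median of -0.06. UTP15 had 47.2 and 34.6 CPM in nuclear extracts, against 17.1 and 14.9 CPM in whole cells (1.14 ± 0.17, edgeR adjusted p = 0.00183), and UTP18 56.1 and 48.2 CPM, against 23.6 and 29.5 CPM (0.76 ± 0.24). KRR1 was on the other side, with 79.9 and 53.4 CPM in nuclear extracts, against 165 and 158 CPM in whole cells (-1.50 ± 0.37). RRP5 (-1.003 ± 0.313) and KRE33 (-0.90 ± 0.28) were lower too. UTP15 alone kept its call in every alternative, and the other calls were lost in 1 or more of them. Without whole cell replicate 1, whole cell replicate 2 or nuclear replicate 2, no member was called lower, and leaving out any 1 of the 4 libraries left 1 member higher. UTP15, UTP18, KRR1, RRP5 and KRE33 were called in the interface mutant too (share of all genes called in both not counted). There 3 members were higher and 5 lower (17.3% and 17.0% of all genes) with a median of -0.16. Nothing is read from the counts of either strain, and 1 of the 8 interface mutant calls was kept in every alternative. UTP15 (0.71 ± 0.17), UTP18 (0.82 ± 0.24) and RRP9 (0.75 ± 0.23) were higher. KRR1 (-1.67 ± 0.38), RRP5 (-1.40 ± 0.32), KRE33 (-1.19 ± 0.28), UTP13 (-0.84 ± 0.27) and NAN1 (-0.70 ± 0.23) were lower. Without the 3 nuclear libraries on the other mutant's side there were 5 higher and 4 lower in wild type (share of all genes not given). The interface mutant then has 1 nuclear library, and its calls are not given.

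In nuclear extracts labelled IDR mutant all 35 members had fitted values above their whole cell level, 12 of them by call and none lower (4.63% of all genes higher and 4.98% lower), with a median of 0.68. UTP6 had 28.7, 37.0 and 18.1 CPM in nuclear extracts, against 9.72 and 9.39 CPM in whole cells (1.31 ± 0.25, edgeR adjusted p = 0.016), and no library overlapped. UTP15 had 41.5, 40.9 and 32.2 CPM, against 16.8 and 17.5 CPM (0.94 ± 0.16), and UTP18 52.1, 51.8 and 27.4 CPM, against 19.1 and 14.8 CPM (1.13 ± 0.23). DHR2 (1.06 ± 0.22) and IMP4 (0.88 ± 0.20) followed. These calls rest on nuclear replicates 1 and 2, both on the other mutant's side in the label check. The count was 1 without nuclear replicate 1, 3 without replicate 2, 23 without replicate 3 and 0 without either whole cell replicate. Without the libraries on the other mutant's side 1 nuclear library was left, and the median was 0.14. That library was kept because it lay toward the whole cell IDR mutant, so the smaller median may follow from the choice. The interaction of fraction and strain was not called for any member in the IDR mutant (14 at an unadjusted p under 0.05, 1.40% of all genes called, median 0.78). UTP13 (1.40 ± 0.38, adjusted p = 0.0745), KRR1 (1.78 ± 0.51) and DHR2 (1.01 ± 0.31) had the smallest p. With replicate number as a block, 20 members were called in this interaction, and 24 were higher in nuclear extracts of the IDR mutant. Shares of all genes are given for the fit without this block only. Without nuclear IDR mutant replicate 3, 17 members were called, 1 without nuclear wild type replicate 1, and the median was 0.26 without the libraries on the other mutant's side. For the interface mutant the interaction was called for no member either (0 unadjusted, and 0.0% of all genes called, median -0.11), with UTP15 (-0.43 ± 0.24), UTP20 (-0.49 ± 0.34) and DIP2 (-0.33 ± 0.28) at the smallest p.

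**Figure D5:**
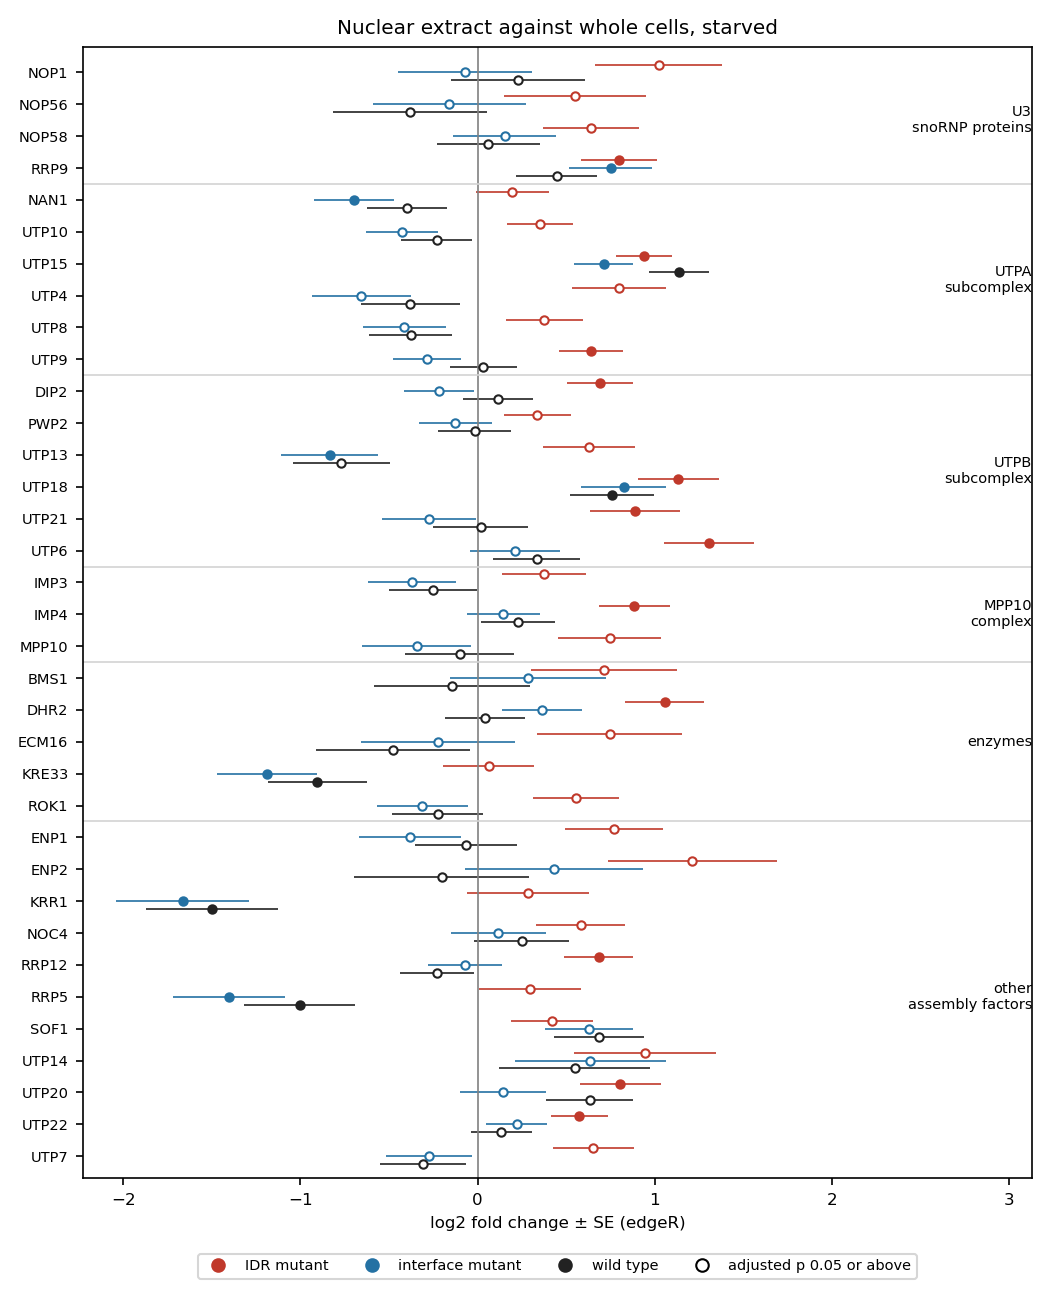
Log2 fold change ± SE of nuclear extracts against whole cells of the same starved strain (x axis) for each gene by role (n = 3 nuclear and 2 whole cell libraries in the IDR mutant, 2 and 2 in the other strains), with open points where the edgeR adjusted p was 0.05 or above. Points of the libraries labelled IDR mutant all lie above 0, and KRR1, RRP5 and KRE33 lie furthest below 0 in the other strains.

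Other lists of ribosome assembly genes were set beside the members in starved against unstressed cells, where 34.3%, 30.3% and 34.5% of all genes fell and 33.0%, 29.7% and 31.7% rose in the IDR mutant, the interface mutant and wild type. Of 32 further processome genes, 31 fell in the IDR mutant, 30 in the interface mutant and 27 in wild type, and none rose. RCL1, an RNA cyclase-like factor, stood at -1.98 ± 0.13, -2.01 ± 0.13 and -1.96 ± 0.13 in these strains, and the helicase gene DBP8 at -3.12 ± 0.17, -2.73 ± 0.16 and -2.48 ± 0.16. Of 56 genes of large subunit assembly, 54, 48 and 38 fell, and 1, 1 and 2 rose. RRS1 stood at -3.31 ± 0.13, -2.60 ± 0.13 and -2.55 ± 0.13, and BRX1 at -2.90 ± 0.13, -2.08 ± 0.13 and -2.05 ± 0.13. In each of these lists the IDR mutant had the most falls and wild type the fewest, as among the 35 members. Of 10 RNA polymerase I genes, 9, 8 and 7 fell (RPA43, a subunit, at -2.81 ± 0.14, -1.49 ± 0.13 and -1.57 ± 0.14, and the initiation factor gene RRN3 at -1.96 ± 0.18, -1.97 ± 0.18 and -1.85 ± 0.18), and 0, 1 and 2 rose. Late 40S maturation genes were nearer to these shares in wild type: of 10, 8, 6 and 5 fell and 1, 0 and 1 rose, with the kinase gene RIO2 at -1.93 ± 0.27, -1.63 ± 0.26 and -2.23 ± 0.27 and the methyltransferase gene BUD23 at -2.40 ± 0.27, -2.40 ± 0.26 and -2.09 ± 0.26.

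Of 9 regulator genes, 3, 4 and 4 rose in the IDR mutant, the interface mutant and wild type, and 2 fell in each. These counts are near the shares of all genes given above, and nothing is read from them. DOT6, the repressor that binds PAC, rose by 3.39 ± 0.34, 2.72 ± 0.33 and 3.21 ± 0.34. STB3, the repressor that binds RRPE, rose by 2.35 ± 0.33, 2.21 ± 0.33 and 2.56 ± 0.34. TOD6, the paralog of DOT6, fell instead (-0.74 ± 0.17, -1.19 ± 0.17 and -0.76 ± 0.17). Of the regulators of ribosomal protein genes, the corepressor gene CRF1 rose (3.28 ± 0.27, 2.27 ± 0.24 and 1.35 ± 0.24) and FHL1 fell (-1.25 ± 0.30, -1.66 ± 0.30 and -0.79 ± 0.29). HMO1 rose in the interface mutant (0.56 ± 0.19) and in wild type (0.79 ± 0.19) and stood at 0.34 ± 0.19 in the IDR mutant. The activator genes SFP1 (-0.13 ± 0.24, -0.07 ± 0.24 and 0.20 ± 0.24) and IFH1 (0.04 ± 0.23, 0.12 ± 0.23 and 0.50 ± 0.23) and the kinase gene SCH9 (0.48 ± 0.45, 0.02 ± 0.46 and 0.85 ± 0.47) were not called in any strain. These are levels of RNA and say nothing of the activity or place of the proteins.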

How the data were processed

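The authors deposited read counts per gene, not normalized; per the file headers they counted with featureCounts 2.0.1, over gene features on the reverse strand, taking multi-mapping reads as fractions with no option to count reads shared by overlapping genes. All counts are whole. Per the submitters' processing notes adapters were trimmed with cutadapt and TopHat2 aligned the reads (no version is named). Whole cell files name annotation R64-2-1; all 35 members have the same start and end in the reference used here (R64).

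Each fit used edgeR 4.0.16 (R 4.3.3): TMM factors, filterByExpr with a minimum count of 10, a quasi-likelihood F test, Benjamini-Hochberg adjustment over all genes, threshold 0.05. One fit held the 12 whole cell libraries (5853 genes), one the 7 nuclear libraries with at least 100000 counts (6086 genes) and one the 6 starved whole cell and these 7 nuclear libraries (5944 genes). Printed CPM are counts scaled to 1000000 in yeast genes per library, without TMM factors; fold changes use the factors (0.799 for unstressed wild type replicate 1 and 1.16 for replicate 2). The fits were tested on simulated data.

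Groups come from the labels. Members and gene lists were chosen with earlier results of these data known, and the label check of nuclear libraries was added after seeing the data. All 35 genes are named in the starvation comparisons; elsewhere those past the threshold (if over 10, the 5 smallest adjusted p in each direction), or the 3 smallest p where fewer than 3 passed; of each other list the 2 with the smallest adjusted p in wild type starvation, and all regulators. Promoter letters were searched on both strands. Alternatives were RLE and upper quartile factors, no filter, DESeq2 1.42.0, a replicate block, the compared groups alone, all 9 nuclear libraries and each replicate left out; a group left with 1 library was assumed to vary like the others.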

Additional observations from a re-analysis of the deposited data

Results flagged for a closer look

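The starvation response of 18 members differed between the IDR mutant and wild type by the edgeR interaction test, each with a more negative response in the IDR mutant. Of all genes, 5.50% had a more negative response by this test and 6.24% a more positive one. None of the 18 calls was kept under every alternative. The 5 with the smallest adjusted p were KRE33 with a log2 difference of -1.13, ENP1 with -1.20, UTP4 with -1.52, UTP7 with -1.09 and UTP21 with -1.27. The cause was not tested.

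The 2 nuclear libraries outside the fits held counts in the members: 6 in wild type replicate 3 and 20 in interface mutant replicate 3. There is no control library to set these against, and they are too few for a level.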

How the results depend on the processing

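Under each alternative the median over the members kept its sign in the starvation comparisons. Of the members called, 31 of 33 in the IDR mutant, 24 of 27 in the interface mutant and 16 of 25 in wild type kept their calls in every one. DHR2 in wild type starvation lay between -0.66 (edgeR adjusted p = 0.00955, without unstressed wild type replicate 1) and 0.56 (adjusted p = 0.0283, without replicate 2). Counts of members moved as follows, and the cause was not tested. Shares of all genes are given for the main fits only, so the counts under alternatives have none beside them. With the compared groups alone, 1 member rose in wild type starvation, 2 were higher in the unstressed IDR mutant than in the interface mutant, 32 of the starved IDR mutant were lower against wild type and 9 had a more negative response in the IDR mutant. In nuclear against whole cell the same setting gave 5 higher in wild type, 4 higher in the IDR mutant, and 0 higher and 3 lower in the interface mutant. RLE factors and DESeq2 each gave 1 that rose in interface mutant starvation. DESeq2 gave 6 higher and 1 lower in the unstressed IDR mutant against wild type and 6 higher in the fraction difference of the IDR mutant. No filter gave 7 higher in nuclear against whole cell of the IDR mutant, as did all 9 nuclear libraries (7), which gave 1 in the fraction difference. Without the 3 nuclear libraries on the other mutant's side, chosen after seeing the data, 5 were higher against whole cells in wild type. Each mutant then has 1 nuclear library, and its calls are not given.

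The replicate block, which pairs libraries by number, gave for nuclear against whole cell 4 higher in wild type, with 24 for the IDR mutant, and 20 in the fraction difference of the IDR mutant, and moved no other count by over 1.5 times. In whole cells the numbers were not shown to pair the libraries: deviations of same-numbered libraries correlated between -0.43 and 0.33 over 15 pairs of groups (3 over 0.1). In nuclear extracts all 3 pairs of groups correlated over 0.1 (0.18 to 0.48), with only 2 numbers of enough depth in each of them.

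With 1 library left out at a time, wild type starvation had 1 to 6 members that rose and 19 to 25 that fell, the IDR mutant 31 to 32 that fell and the interface mutant 25 to 28. Unstressed, the IDR mutant had 0 to 18 higher and 0 to 2 lower than wild type and the interface mutant 0 to 17 higher and 0 to 2 lower. Starved, the IDR mutant had 0 to 0 higher and 11 to 13 lower than wild type and 3 to 13 lower than the interface mutant, which had 0 to 4 lower than wild type. The response was more negative for 0 to 29 members in the IDR mutant and 0 to 17 in the interface mutant, and more positive for 0 to 2 in the interface mutant. Nuclear against whole cell gave 1 to 1 higher and 0 to 4 lower in wild type, 0 to 23 higher in the IDR mutant, and 2 to 3 higher and 2 to 4 lower in the interface mutant. The median over the members of nuclear against whole cell in wild type lay between -0.33 and 0.14. The fraction difference of the IDR mutant had 0 to 17 higher.

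Upper quartile factors moved the median of all genes by 0.10 in the unstressed IDR mutant and in the unstressed interface mutant against wild type and by -0.10 in the response of the interface mutant, and DESeq2 moved it by 0.14 in IDR mutant starvation. Which of depth and the number of libraries limits these tests was not tested.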
